A study of Rattus norvegicus with 16 samples.

Results

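Single-exon genes were taken as the genes of the rat annotation (genome build rn5) that lie on a numbered chromosome, whose model holds a single uninterrupted interval, and whose length is at least 600 bases. By this rule 2201 of the 26560 genes listed were single-exon genes, and they lay on 20 chromosomes. The rule used only position and structure, so that no measured value chose the members. Of the 4599 single-interval genes of any length on these chromosomes, 2398 were under the length minimum, and 163 single-exon genes of sufficient length on the X chromosome were left out by the rule. Members were 600 to 6366 bases long with a median of 945. The members nearest the length minimum had 600 bases and mean counts of 16.5, 3.5 and 0.625, while the nearest genes outside it had 597 bases and no count in any library. The comparison group was the 18194 genes of the same chromosomes and the same length minimum with more than 1 exon, whose median length was 1896 bases.

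Most mammalian genes are split by introns, and a gene without them can arise when a spliced messenger RNA is reverse transcribed and inserted elsewhere in the genome, as a retrogene. Testis germ cells are the classic site of retrogene transcription. Several autosomal retrogenes are copies of X-linked housekeeping genes and are transcribed in spermatocytes and spermatids, when the X chromosome is silenced. Other intronless genes are not retrogenes, and chemoreceptor genes, which form large tandem arrays and mostly act in sensory neurons, are a well-known example.

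The libraries were made from germ cells sorted for eGFP from dissociated testes of male GC-eGFP Sprague-Dawley rats at 19 weeks of age. All rats carried the transgene, and the promoter that drives eGFP is not given in the sources used here. From weaning the rats received either a high fat diet (HFD; 40% of calories from fat per the labels) or a control diet (CD; 10% of calories from fat), with 4 mRNA libraries per diet. The fat share of the HFD is the labels' value, and the study's methods give a different one. No source says that animals were pooled, and p-values measure the spread between these libraries. Total gene counts were 39042726 to 62038805 per HFD library and 38633043 to 53742726 per CD library, so that 3 counts were between 4.84e-06% and 7.77e-06% of a library. Since 0 of the 26560 identifiers were found in the reference's table of genes, members are given here by their place in rn5, no function is assigned to any of them, and the germ cell label could not be checked here against marker genes. The study itself checked the purity of the sorted cells by qPCR for germ cell, Sertoli cell and Leydig cell genes. No library was an outlier by Dixon's test (0 of 46 groups of 4). That test looks for 1 extreme value, so that 2 libraries that are high together can hide each other from it. CD replicates 1 and 2 were on the median the highest libraries in the most abundant single-exon genes. Results that rest on them are given with and without them. These libraries were picked for being high in these genes, so that leaving them out lowers the CD mean there by construction. Values without them show how far a result rests on these libraries, and are no test of the diet. No sequences are shown, since no rn5 genome was used here.

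How many single-exon genes were transcribed in germ cells was asked first. A gene was called expressed where its raw counts averaged at least 10 per library. By this measure 503 of the 2201 single-exon genes (22.9%) were expressed, against 13143 of the 18194 multi-exon genes (72.2%). No read was assigned in any library to 1012 single-exon genes (46.0%), and a single library counted between 804 and 903 of the 2201. The mean count was under 1 for 1340 members, from 1 to under 10 for 358, from 10 to under 100 for 225, from 100 to under 1000 for 141, from 1000 to under 5000 for 78, and at least 5000 for 59. Only uniquely aligned reads were counted, so that reads shared by near-identical copies were lost. How many were lost was not tested, and a count of 0 shows only that no unique read was assigned at this depth.

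The share expressed was lower among single-exon genes in every length class, and the gap was widest among the shortest. Of genes from 600 to under 1000 bases, 185 of 1576 single-exon genes (11.7%) and 1355 of 3007 multi-exon genes (45.1%) were expressed. From 1000 to under 1500 bases these were 127 of 308 (41.2%) and 2266 of 3487 (65.0%). From 1500 to under 2500 bases they were 135 of 222 (60.8%) and 4210 of 5471 (77.0%), and from 2500 bases upwards 56 of 95 (58.9%) and 5312 of 6229 (85.3%). Genes are not replicates, so these shares are given without a test.

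**Figure D1:**
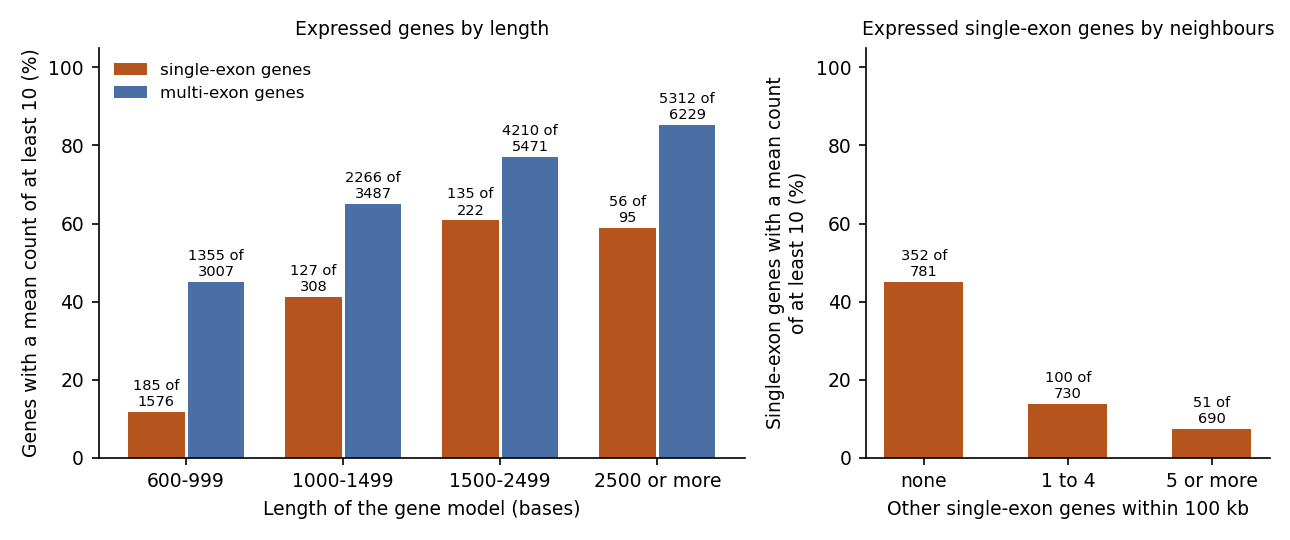
Percent of genes whose mean count reached 10, for single-exon and multi-exon genes by length class in bases (left) and for single-exon genes by the number of other single-exon genes within 100 kb (right), with the numbers of genes above each bar. Single-exon genes are below multi-exon genes in each of the length classes, from 11.7% against 45.1% in the shortest, and isolated single-exon genes (45.1%) are above those with 5 or more neighbours (7.39%).

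The share expressed was lower where more single-exon genes lay nearby. Of the 781 members with no other member within 100 kb, 352 (45.1%) were expressed. The share was 100 of 730 (13.7%) with 1 to 4 such neighbours and 51 of 690 (7.39%) with 5 or more. In the shortest length class alone it was 122 of 351 (34.8%), 40 of 599 (6.68%) and 23 of 626 (3.67%), so that its isolated members also lay below the 45.1% of multi-exon genes of that length. Of the 137 members with mean counts of 1000 or more, 111 had no neighbour within this window and 3 had 5 or more.

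Length and crowding overlapped. A length of 900 to under 1000 bases was held by 1254 members (57.0%), of which 75 (5.98%) were expressed, against 428 of the other 947 (45.2%). Among members of 900 to under 1000 bases, 31 of 130 (23.8%) were expressed where no neighbour was near, and 21 of 610 (3.44%) with 5 or more neighbours. Among members of other lengths these shares were 321 of 651 (49.3%) and 30 of 80 (37.5%), so that the share was lower with crowding in both groups. The 80 crowded members of other lengths had a median length of 2079 bases. They took in genes of an array on chromosome 18, described below, whose 16 members were all expressed. How far the share of 37.5% rests on such arrays of long genes was not tested, so that the falls of the groups are not ranked here.

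Chains of at least 10 members with gaps of no more than 100 kb formed 41 arrays, which held 816 members and 54 expressed ones (6.62%). In 23 of the arrays no member was expressed. The most populous lay at chr1:173766446-175088400 and held 69 members with a median length of 948 bases, of which 61 were never counted and none reached a mean count above 4.5. Arrays at chr3:109031170-110153480 and chr20:316210-1317174 had 3 expressed members of 46 and 3 of 38. By contrast, all 16 members of an array at chr18:30470724-30606131 were expressed, with a median length of 2562 bases and mean counts from 15 to 1798. Their levels were mostly low, with a median of 0.405 and a range of 0.123 to 48.2 CPM (counts per 1000000 gene counts) per kilobase of gene length. A second array of long genes on the same chromosome, chr18:29992749-30302376, had 5 expressed members of 18. Near the largest array, 1 abundant member with a mean count of 56376 lay at chr1:175489504-175491342 in an array of 19 members, only 2 of which were expressed.

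The chromosomes differed in the share expressed. Chromosome 1 held 481 members, of which 73 (15.2%) were expressed, chromosome 3 held 302 with 40 expressed (13.2%), and chromosome 8 held 173 with 21 expressed (12.1%). The highest shares were on chromosome 6 (33 of 54, 61.1%) and chromosome 16 (15 of 28, 53.6%).

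Other features of the models were compared next. The length was a multiple of 3 in 1955 members (88.8%), against 49.6% of multi-exon genes. Coding and untranslated parts of the models were not examined. Of these 1955 members 379 (19.4%) were expressed, against 124 of the 246 (50.4%) whose length was not a multiple of 3. These groups were not matched for length, and their median lengths were 942 and 1357 bases. Bases that the repeat annotation covers occurred in 104 members (4.73%), against 24.0% of multi-exon genes, which were longer on the median. Of these 104 members 40 (38.5%) were expressed, against 463 of the 2097 (22.1%) without such bases. Median lengths were 1356 and 945 bases, and neither comparison was matched for length. Only 9 members were more than 50% repeat. Entries of the piRNA annotation with a single place in the genome lay inside 15 members, all of them expressed. There were 22 such entries, or 8.73 per megabase of members against 26.6 per megabase of multi-exon exons. Of these 22 entries, 5 in 4 members had mean counts of 1 or more over the 8 small RNA libraries of the same design.

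The level of the expressed genes was then compared with that of multi-exon genes of similar length. Levels are CPM per kilobase of gene length, a scale on which genes of unequal length can be set side by side. From 600 to under 1000 bases the median level was 1.79 for expressed single-exon genes and 6.49 for multi-exon genes. From 1000 to under 1500 bases the medians were 3.61 and 5.62, from 1500 to under 2500 bases 4.41 and 4.78, and from 2500 bases upwards 1.31 and 2.89. The upper end was higher for single-exon genes in the middle length classes and lower in the shortest and longest. The 90th percentile was 198 for single-exon and 110 for multi-exon genes from 1000 to under 1500 bases and 145 and 85.7 from 1500 to under 2500 bases, while from 600 to under 1000 bases it was 71.4 and 108 and from 2500 bases upwards 35.9 and 45.6.

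**Figure D2:**
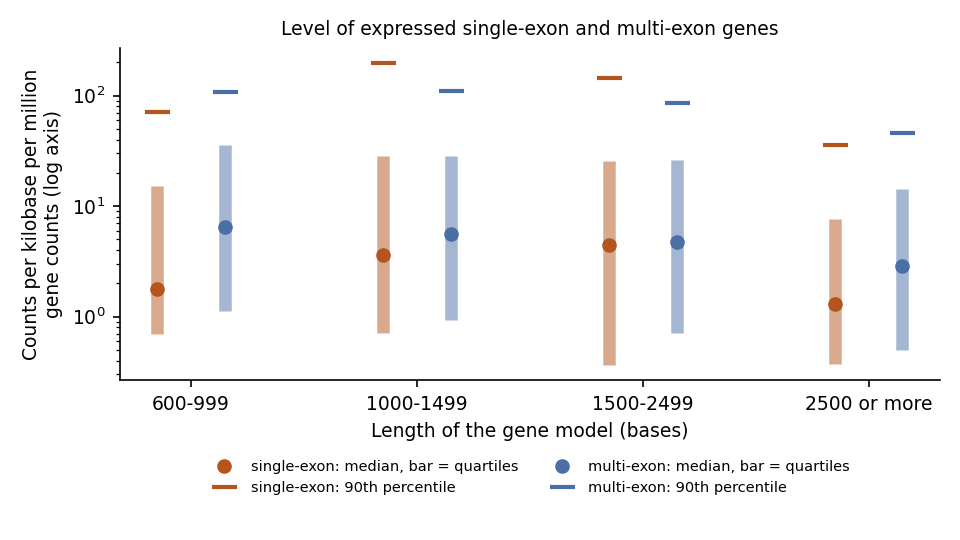
Level of expressed genes (mean count of at least 10) in CPM per kilobase, on a log axis, by length class in bases. Points are medians, bars run between the quartiles and dashes are 90th percentiles. Single-exon medians are below multi-exon medians in each class, while the single-exon 90th percentiles are above in the classes from 1000 to under 1500 (198 against 110) and 1500 to under 2500 bases (145 against 85.7) and below in the other two.

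The difference was stable between libraries. On the log2 scale with a pseudocount of 0.1, the median of single-exon genes minus that of multi-exon genes was -1.78 ± 0.084 (SD, n = 8 libraries) from 600 to under 1000 bases, -0.59 ± 0.129 from 1000 to under 1500, -0.16 ± 0.083 from 1500 to under 2500 and -1.13 ± 0.157 from 2500 upwards. With each gene set against the median of its own class, the difference over all classes was -0.95 ± 0.099. It was -0.98 ± 0.055 (SD, n = 4) in HFD and -0.92 ± 0.133 in CD libraries, which overlapped, and between -1.11 and -0.81 in a single library. The difference depended on which genes were compared. It was 0.05 where a mean count of at least 100 was asked of both groups and -0.13 where the multi-exon genes were limited to those with 2 to 4 exons.

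Single-exon genes were spread more widely than multi-exon genes above their own median, but not below it. The mean count of at least 10 asked of both groups bounds the level from below, so that the spread below the median is limited by this threshold. Over the 503 expressed members, the log2 level (averaged over libraries) relative to the multi-exon median of the same length class had a median of -0.84. It was -3.05 at the lower quartile, 2.00 at the upper quartile and 4.24 at the 90th percentile, against -2.42, 2.34 and 4.07 for multi-exon genes. Members were 3.69% of the 13646 expressed genes compared, yet 12 of the 100 genes with the highest level, 36 of the first 500 (7.2%) and 51 of the first 1000 (5.10%). This ranking was not matched for length, and members were shorter on the median. Among multi-exon genes the 90th percentile of the level was 108 in the shortest class and 45.6 in the longest. Of all counts on members, 10.3% fell on 1 gene, 42.2% on 10 genes, 83.1% on 50 and 93.4% on 100.

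The libraries were next compared in single-exon genes of each abundance. Among the 59 members with mean counts of 5000 or more, the median log2 deviation from each gene's own mean was 0.46 in CD replicate 1 and 0.29 in CD replicate 2. It was -0.00 in CD replicate 3, -0.27 in CD replicate 4, and -0.26, -0.26, 0.04 and 0.02 in HFD replicates 1 to 4. CD replicate 4 and HFD replicates 1 and 2 thus lay about as far below 0 as CD replicate 2 lay above it. The 1847 multi-exon genes of the same abundance stayed between -0.09 and 0.05 in every library. CD replicate 1 was the highest library for 42 of the 59 members (71.2%), against 44.2% of these multi-exon genes. The median SD over the 8 libraries was 0.313 for these members and 0.122 for the multi-exon genes. Within a diet it was 0.192 against 0.079 on the HFD and 0.364 against 0.143 on the CD.

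The deviations were smaller below this abundance. With a mean count from 1000 to under 5000, single-exon minus multi-exon deviations were between -0.08 and 0.12, and from 100 to under 1000 between -0.06 and 0.02. The median SD was then 0.153 against 0.133 and 0.201 against 0.203. From 10 to under 100 counts it was 0.370 against 0.385. In bulk libraries, fewer cells of a stage and less RNA per cell cannot be told apart.

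**Figure D3:**
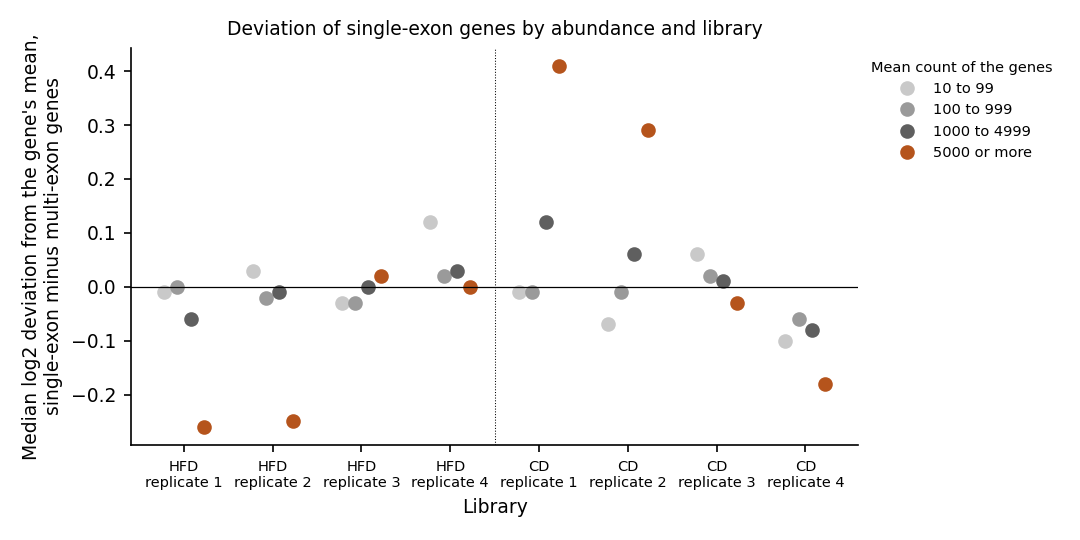
Median log2 deviation of genes from their own mean over the 8 libraries, single-exon minus multi-exon genes, for each library and for 4 bands of mean count. Genes with mean counts of 5000 or more depart furthest, at 0.41 and 0.29 in CD replicates 1 and 2 and at -0.26 and -0.25 in HFD replicates 1 and 2, while the other bands stay between -0.10 and 0.12.

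The 12 single-exon genes with the most counts per kilobase ranked between 5 and 91 among all genes compared, and 8 of them had no other member within 100 kb. They are given in CPM after TMM scaling, which compare 1 gene between libraries. The gene at chr10:88414868-88415513 (646 bases, plus strand) had the highest level, at 3950. It measured 2553, 2074, 2798 and 2048 in the HFD libraries (replicates 1 to 4, always in this order) and 3664, 2678, 2294 and 2469 in the CD libraries. CD replicate 1 was the highest and the diets overlapped. The means were 2368 ± 369 (SD, n = 4) on the HFD and 2776 ± 612 on the CD, with a log2 fold change (HFD over CD) of -0.23 (SE 0.153; edgeR's quasi-likelihood test, Benjamini-Hochberg adjusted p = 0.829).

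The gene with the most counts, at chr1:203724528-203726928 (2401 bases, plus strand), had a mean count of 189396. It measured 3678, 3096, 4068 and 3557 in the HFD libraries and 6426, 5087, 3876 and 3390 in the CD libraries. Only CD replicates 1 and 2 were above every HFD library, and CD replicate 4 was below 3 of the 4. The log2 fold change was -0.38 (SE 0.175; edgeR adjusted p = 0.829), and -0.01 (SE 0.101) without CD replicates 1 and 2.

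The same order of the CD libraries recurred in other abundant genes. At chr9:22956349-22957913 the values were 1442, 1266, 1622 and 1438 on the HFD and 2410, 1950, 1529 and 1347 on the CD. At chr2:41349188-41350390 they were 688, 646, 925 and 860 on the HFD and 1440, 1174, 855 and 711 on the CD. At chr1:175489504-175491342, in the array of 19 described above, they were 966, 870, 1300 and 1096 on the HFD and 1971, 1543, 1221 and 923 on the CD. In each of these genes CD replicate 1 was highest, CD replicate 2 came next and CD replicate 4 lay within the HFD range, so that the spread within the CD exceeded the distance between the diets. The highest library was 1.90, 2.23 and 2.27 times the lowest.

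A different pattern was seen at chr6:108843800-108846300 (2501 bases, plus strand), the fifth gene by level. It measured 2276, 2212, 2087 and 2148 in the HFD libraries and 1979, 1985, 2230 and 2104 in the CD libraries, and its highest library was only 1.15 times its lowest. CD replicates 1 and 2 were its lowest libraries. The gene at chr3:72235317-72236713 also varied little, at 979, 908, 1035 and 994 on the HFD and 1221, 1046, 1008 and 960 on the CD. Its highest library was 1.34 times its lowest. Unlike the gene on chromosome 6, it kept the order seen above, with CD replicate 1 highest and CD replicate 2 next.

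Over the 12 genes, 11 were highest in CD replicate 1 and 9 were lowest in HFD replicate 2, and the diets overlapped in all 12. Log2 fold changes lay between -0.42 and 0.07, of which 11 were below 0, with edgeR adjusted p-values of 0.829 to 0.841. Without CD replicates 1 and 2 they lay between -0.02 and 0.06, and 6 were below 0. Since these libraries were left out for being high, a shift upwards was built in.

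**Figure D4:**
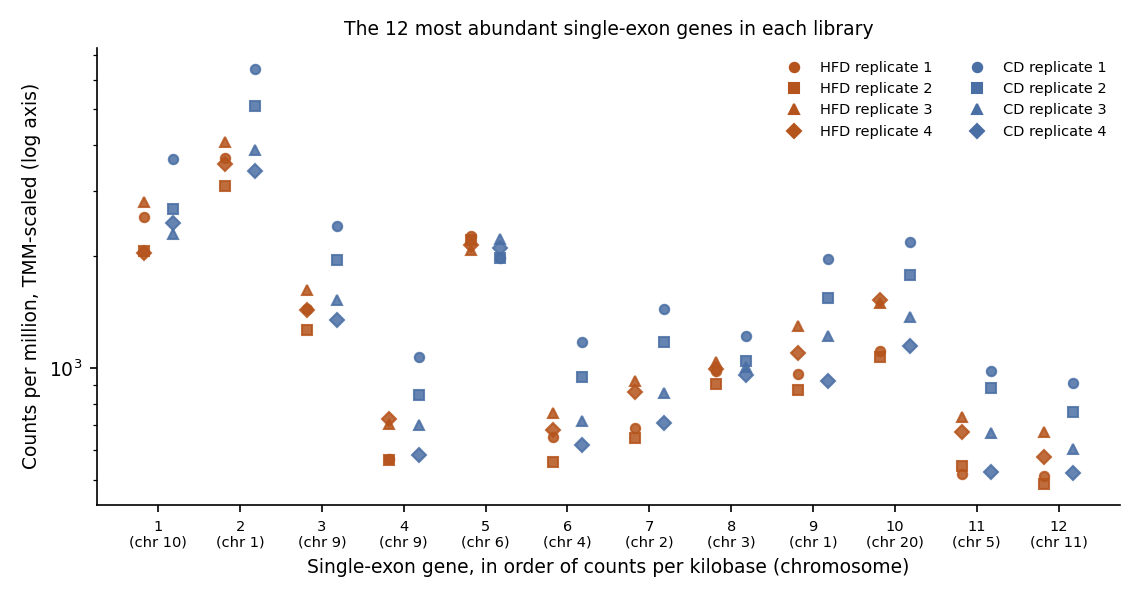
CPM after TMM scaling (log axis) of the 12 single-exon genes with the most counts per kilobase, in each of the 4 HFD and 4 CD libraries. Each symbol is 1 library. CD replicate 1 is highest in 11 of the 12 genes and the diets overlap in all 12, while gene 5 (chromosome 6) varies least, by 1.15 times.

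Abundant single-exon genes were also examined for what lies beside or around them. In 3 places a pair of members with mean counts of 1000 or more lay within 20 kb of each other. On chromosome 11, chr11:90326832-90327908 (level 578) was followed after 3274 bases by chr11:90331183-90332280 (level 305) on the same strand. On chromosome 5, chr5:77650646-77651899 (level 256) and chr5:77653984-77655458 (level 359) lay on opposite strands with 2084 bases between them. On chromosome 20, chr20:42813240-42815798 and chr20:42829886-42831871 both had a level of 29.3, with 14087 bases between them. Within each of these pairs the levels were less than 2 times apart.

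Inside the span of a multi-exon gene lay 153 members, of which 37 (24.2%) were expressed, a share near that of members outside such spans (466 of 2048, 22.8%). In 144 of the 153 every host was on the opposite strand. The 9 nested members with mean counts of 1000 or more all lay opposite their hosts, as did 35 of the 37 expressed nested members. Levels of these 9 were 2.98 to 2478 times those of the hosts. They were picked by the member's own count, so that high ratios were in part built in. Other nested members were not compared with their hosts. The gene at chr9:94977349-94978074 had a level of 980 and its host 1.58. The gene at chr8:4561559-4563407 had a level of 89.0 and its host, with a mean count of 6.50, 0.0359. At chr20:39332020-39333479 the member (37.3) and its host (12.5) were closest.

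Exons overlapped those of another gene in 24 members, of which 10 were expressed. The abundant gene at chr4:185398126-185399121 (level 755, mean count 34824) contains the whole of a single-exon gene of 321 bases on the other strand, which had a level of 1227 and a mean count of 18220. At chr10:55385181-55387034 (level 24.2) the partner shared 489 bases and had a level of 21.4. The library kit named in the labels does not mark strand, so that reads of a gene and of its opposite-strand partner cannot be told apart where they overlap, and the counts of these pairs are uncertain.

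The share of all gene counts on single-exon genes was 3.72%, 3.70%, 4.01% and 3.88% in the HFD libraries and 4.46%, 4.25%, 3.89% and 3.74% in the CD libraries. The 2 highest were CD replicates 1 and 2, while CD replicates 3 and 4 lay within the range of the HFD libraries. The means were 3.82% ± 0.146 (SD, n = 4) on the HFD and 4.09% ± 0.329 on the CD. Their difference (HFD minus CD) was -0.261 percentage points, less than the SD of the CD libraries, and 0.00833 without CD replicates 1 and 2. As these were the highest libraries, a rise of the difference without them was built in.

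Whether the diet changed the transcripts of single-exon genes was then tested gene by gene. No single-exon gene passed the test. Of the 2201 members, 861 had mean counts of 1 or more and entered the edgeR fit, which covered 19446 genes, and the rest were not tested. After Benjamini-Hochberg adjustment 0 members and 0 of all genes (0%) passed 0.05, and the smallest adjusted p of a member was 0.829. DESeq2 with shrunken fold changes, the kind of test the study used, called 6 of the 19446 genes (0.0309%), and 0 of these were members.

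Without adjustment, an edgeR p under 0.05 was held by 29 of 861 members (3.37%), against 3.73% of all genes tested. Of the 29, 15 were lower on the HFD (background 2.52% of genes) and 14 higher (background 1.21%), and 13 had a mean count under 10. DESeq2 gave 24 such members, against 3.66% of all genes. Leaving out 1 library moved this count together with that of all genes. It was 18 members (2.13%, against 2.33% of all genes) without HFD replicate 2, 17 (1.97%, against 2.12%) without CD replicate 1, 19 (2.20%, against 2.38%) without CD replicate 2 and 125 (14.7%, against 17.5%) without CD replicate 4. Every HFD library was above every CD library in 16 members (1.86%, background 1.07%) and below in 9 (1.05%, background 1.04%).

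Log2 fold changes of the 861 members had a median of -0.03, with quartiles of -0.31 and 0.18, and 465 (54.0%) were below 0. Over all genes tested the median was -0.01 and 51.2% were below 0, and over multi-exon genes -0.00 and 50.1%. The difference from multi-exon genes varied with abundance. Values below 0 were held by 52.9% of members and 59.1% of multi-exon genes with mean counts from 10 to under 100, by 48.9% and 44.9% from 100 to under 1000, and by 41 of 78 members and 1144 of 3012 multi-exon genes from 1000 to under 5000, where the lower quartiles were -0.24 and -0.06. Among the 59 with mean counts of 5000 or more the median was -0.26, with a range of -0.42 to 0.18, and 47 (79.7%) were lower on the HFD, against a median of -0.01 and 52.0% among the 1847 multi-exon genes of that abundance. Of these 59, 3 (5.08%) had an unadjusted p under 0.05, against 50 (2.71%) of those multi-exon genes, and 0 passed adjustment by edgeR. Without CD replicates 1 and 2 the median was 0.03 and 16 of the 59 were lower. An upward shift was built in here too, since these libraries were picked for being high in these genes. With library totals in place of TMM scaling, which shifts all genes, the median of the 59 was -0.15 and 38 were lower, while the multi-exon median moved to 0.08.

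**Figure D5:**
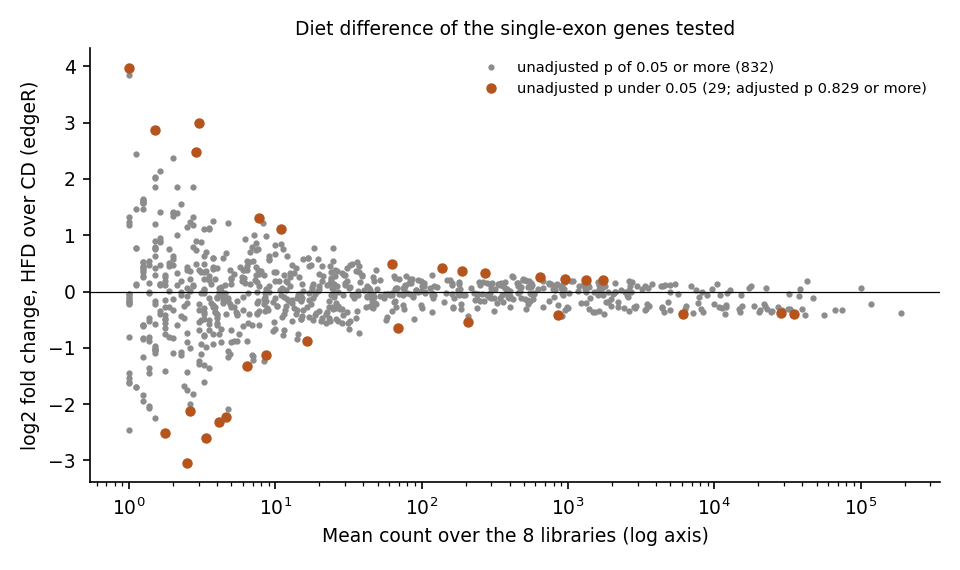
Log2 fold change (HFD over CD, edgeR) of the 861 single-exon genes tested against their mean count over the 8 libraries (log axis). Orange points mark the 29 genes with an unadjusted p under 0.05, of which 13 have a mean count under 10, and no gene has an adjusted p below 0.829. Genes at the right, with mean counts of 5000 or more, lie mostly below 0, with a median of -0.26.

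The members with the smallest p on each side were named by rule, and none passed adjustment. Their permutation p-values are unadjusted and come from the same values that picked these genes, so that they are no second test. ENSRNOG00000017603 (chr17:59052938-59054562, 1625 bases, plus strand) measured 3.49, 3.67, 4.04 and 3.42 TMM-scaled CPM in the HFD libraries and 6.49, 5.43, 4.61 and 4.71 in the CD libraries. All HFD libraries were below all CD libraries, by means of 3.65 ± 0.277 (SD, n = 4) and 5.31 ± 0.867. The log2 fold change was -0.54 (SE 0.142; edgeR adjusted p = 0.829; two-sided exact permutation p = 0.0286, the smallest this design can give), and -0.35 without CD replicates 1 and 2.

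ENSRNOG00000019568 (chr16:20342643-20343668, 1026 bases, minus strand) measured 14.9, 15.1, 15.7 and 18.3 on the HFD and 26.6, 24.7, 18.5 and 15.9 on the CD. Both diets overlapped, since CD replicate 4 lay within the HFD range. The means were 16 ± 1.58 (SD, n = 4) and 21.4 ± 5.03, with a log2 fold change of -0.42 (SE 0.154; edgeR adjusted p = 0.829; two-sided exact permutation p = 0.0571), and -0.10 without CD replicates 1 and 2. The other two members of the lower side, at chr15:31116041-31118920 and chr3:126332394-126334420, had mean counts of 4.12 and 4.62, with counts of 0 to 4 in HFD and 4 to 10 in CD libraries.

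ENSRNOG00000039463 (chr18:30502814-30505234, 2421 bases, plus strand) belongs to the array of 16 expressed genes on chromosome 18. It measured 4.27, 4.40, 4.06 and 5.10 on the HFD and 3.39, 3.46, 3.67 and 3.37 on the CD, and every HFD library was above every CD library. The means were 4.46 ± 0.451 (SD, n = 4) and 3.47 ± 0.134, with a log2 fold change of 0.36 (SE 0.125; edgeR adjusted p = 0.829; two-sided exact permutation p = 0.0286). Its neighbours did not all share this direction. Of the 16 genes of the array, this gene included, 11 had values above 0. The log2 fold changes ran from -0.46 to 0.54 with a median of 0.10. This gene was the only 1 of the 16 with an unadjusted edgeR p under 0.05.

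ENSRNOG00000023547 (chr13:107754990-107755949, 960 bases, minus strand), nested in a multi-exon gene, had raw counts of 5, 4, 6 and 5 on the HFD and 0, 0, 1 and 2 on the CD. There was no overlap (edgeR adjusted p = 0.829; two-sided exact permutation p = 0.0286). All CD libraries were under the floor of 3 counts, so that no fold change is given. The other two members of the higher side were better covered. At chr19:48692347-48694164 the means were 1.54 ± 0.214 (SD, n = 4) on the HFD and 1.10 ± 0.107 on the CD, with a log2 fold change of 0.49 (SE 0.185). At chr3:167475675-167477042 they were 21.7 ± 1.72 and 18.6 ± 0.683, with a log2 fold change of 0.23 (SE 0.086). Every HFD library was above every CD library in both genes (edgeR adjusted p = 0.829 and two-sided exact permutation p = 0.0286 for each).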

How the data were processed

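For each library the authors deposited a table of unnormalized counts, each the number of uniquely aligned reads on a gene. Per the labels, the file headers and the study's methods, reads were aligned to rn5 with STAR 2.3.0 and counted with featureCounts 1.4.6 over Ensembl genes, on the reverse strand, although the kit named in the labels does not mark strand, in which case reads of one orientation were left uncounted. Raw piRNA counts and the repeat annotation were used here for entries inside members. Groups and replicate numbers came from the sample labels, with 4 HFD and 4 CD mRNA libraries of 16 samples in all.

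Members were compared with multi-exon genes in length classes starting at 600, 1000, 1500 and 2500 bases. Diet was tested by the quasi-likelihood test of edgeR 4.0.16 under R 4.3.3 (TMM, Benjamini-Hochberg adjustment over the 19446 genes whose mean count reached 1), and by DESeq2 1.42.0 as an alternative. Single values were compared by exact permutation tests in scipy 1.17.1. The scripts were tested on simulated data. Genes named were the 12 with the most counts per kilobase and the 4 lower and 4 higher with the smallest p, of which 2 each way are given by identifier. The lists of retrogenes and of cell type markers are symbols, and since no identifier matched a symbol they were not applied. The members, the lists and these rules were chosen with earlier results of these data known. Replicate numbers are shared between the diets, but same-numbered libraries did not deviate together (correlations of -0.0558, 0.0305, -0.0853 and -0.198), so that no pairing was assumed. No 2 libraries of one diet were alike within sampling noise (lowest chi-square per degree of freedom 16.3). Alternatives covered the test, size factors, filters, a robust fit, the replicate block, leaving out each library, the definition of expressed, length, overlap, pseudocount and exon number. Leaving out CD replicates 1 and 2 together, and the band of mean counts of at least 5000, were added after seeing the data.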

Additional observations from a re-analysis of the deposited data

How the results depend on the processing

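No alternative gave a single-exon gene past adjustment. Over the settings, the smallest adjusted p of a member was lowest without CD replicate 4, at 0.221. With the replicate number as a block, 0 members passed, 9 of 861 had an unadjusted p under 0.05 (1.05%, against 1.66% of all genes), and the median log2 fold change was -0.02. The replicate block changed no call. Asking for a mean count of at least 10 gave 15 members with an unadjusted p under 0.05 (2.98%, against 3.55% of all genes), and leaving out 1 library gave 17 to 125, while 2.12% to 17.5% of all genes had such a p.

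The median log2 fold change of the members was 0.06 with library totals only, where that of all genes was 0.08, 0.02 without both CD replicates 1 and 2, and -0.05 to -0.01 when 1 library was left out (-0.01 without HFD replicate 1). The share of counts (HFD minus CD) was 0.00833 percentage points without both, and -0.375 to -0.135 without 1 library. Among members with a mean count of at least 5000, leaving out 1 library gave medians of -0.40 to -0.14 with 44 to 47 genes lower on the HFD.

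Of the single-exon genes, 861 had a mean count of at least 1, 278 of at least 100, and 318 were expressed and at least 1000 bases long, while leaving out 1 library gave 498 to 510. The log2 level difference from multi-exon genes was -2.0 at a mean count of at least 1, turned to 0.05 at 100, and was -0.50 for lengths of at least 1000 bases, -0.72 with a pseudocount of 1, -0.13 against genes of 2 to 4 exons and -1.0 to -0.90 without 1 library. The cause was not tested. The mean share of counts was 3.21% for lengths of at least 1000 bases and 3.08% without the 3 members with the most counts. Genes with mean counts under 10 had a median SE of 0.96 (log2), so that at this depth changes of that size were not detectable in them.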
